A study of Mus musculus with 4 samples.

Results

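The genes described here are 8 transcription factor genes of the gut endoderm and of progenitor cells: the caudal homeobox genes Cdx1 and Cdx2, the pancreatic and duodenal homeobox gene Pdx1, the zinc finger genes Gata4, Gata6 and Klf5, and the HMG box genes Sox4 and Sox9. They were taken by symbol from the count tables, and all 8 of them are listed among the 25793 genes. They were chosen with their tumour and normal counts known, so their differences between libraries are given as a description, with no test.

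The transcriptomes of 4 mouse liver libraries were sequenced. Both tumours carried the genotype beta-2SP+/- ; SMAD3+/-, that is, 1 copy each of the gene for beta-2 spectrin, a SMAD3 adaptor, and of Smad3, which carries TGF-beta signals to the nucleus. Of the normal livers, 1 was labelled with the same genotype and 1 wild type. The sources used here give no age, sex or strain and do not say whether the tumours came from separate animals, and p-values therefore measure only the spread between these libraries.

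Endoderm, the inner germ layer, forms gut, liver and pancreas, and homeobox, GATA, SOX and KLF factors divide it into organs. GATA4 and GATA6 act early in endoderm, CDX1 and CDX2 set and maintain intestinal identity, and PDX1 marks the pancreatic and duodenal region. SOX9 is kept in bile ducts and in ductal progenitors, SOX4 acts with it in bile duct development, and KLF5 is a factor of proliferating gut crypt epithelium. Adult hepatocytes are known for little expression of CDX, SOX4 and KLF5.

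Reads assigned to genes ranged between 11049931 and 18448621 per library, with both tumours at the lower end. The normal tables were closer to each other than sampling allows: among the 2632 genes averaging 1 to 5 counts, 56.8% held the identical count, where sampling gives 22.0%. They were counted as 1 sample, by their rounded mean. Submitters' short descriptions name T cells for both tumours and hepatocytes for both normal livers. Of 10 T cell markers, 7 were at 0 in both tumours, the defining Cd3d, Cd3e and Cd3g among them, and the list summed in the tumours to 0.606 and 1.23 CPM (counts scaled to the size of the library), against 6.8 CPM in normal liver. All 8 hepatocyte markers fell in the tumours and summed to 12.2 and 49.1 CPM, against 193830 CPM in normal liver, so the labelled tissue is nearly without its defining transcripts there. Tat, which breaks down tyrosine, and Cps1, of the urea cycle, led these falls with 2 and 2, and 9 and 11, counts in the tumours. In bulk RNA, fewer cells of a type and less RNA per cell cannot be told apart.

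Promoter sequence is shown for the members that the results turn on, Cdx2, present in 1 tumour, and Sox4, present in both, and for Pdx1, the annotated neighbour of Cdx2. RefSeq (build GRCm38.p6) gave a window for 3 of the 8 genes by symbol. Each is the 250 bases before the annotated start, 5′ to 3′ on the gene's strand, with matches to a KLF-type motif in capitals.
Cdx2 (chr5:147307250-147307499, minus strand): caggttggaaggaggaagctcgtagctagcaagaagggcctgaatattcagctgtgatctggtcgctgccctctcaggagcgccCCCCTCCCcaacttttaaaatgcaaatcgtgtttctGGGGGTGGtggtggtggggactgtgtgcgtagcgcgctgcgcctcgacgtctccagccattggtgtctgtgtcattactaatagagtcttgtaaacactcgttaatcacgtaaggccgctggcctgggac
Sox4 (chr13:28953700-28953949, minus strand): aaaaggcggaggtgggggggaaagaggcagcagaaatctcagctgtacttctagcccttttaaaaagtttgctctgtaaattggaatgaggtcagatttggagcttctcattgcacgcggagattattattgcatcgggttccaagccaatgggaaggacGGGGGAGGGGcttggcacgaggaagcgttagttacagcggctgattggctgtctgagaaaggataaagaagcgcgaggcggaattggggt
Pdx1 (chr5:147269847-147270096, plus strand): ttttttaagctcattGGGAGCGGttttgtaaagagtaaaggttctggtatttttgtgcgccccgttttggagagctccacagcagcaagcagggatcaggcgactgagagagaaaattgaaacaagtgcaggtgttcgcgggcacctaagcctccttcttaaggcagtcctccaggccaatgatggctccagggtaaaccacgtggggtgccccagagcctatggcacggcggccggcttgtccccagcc

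Motifs of the members' own families were searched on both strands of these windows. The KLF-type motif, CCNCNCCC, matched at 2 positions in Cdx2, 166 and 130 bases before the start. In Sox4 it matched at 2 positions that overlap each other, 90 and 88 bases before the start, and in Pdx1 at 1 position, 235 bases before it. Of 32851 promoter windows of the same length, 45.9% held this motif, so a match is common. The GATA letters AGATAA, held by 9.99% of all windows, were in none of the 3. The same was true of the CDX letters TTTATNG, which 9.81% of windows held. It was also true of the SOX letters ACAATGG, held by 3.02%. None of these motifs overlaps another here, apart from the paired KLF-type matches of Sox4.

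**Figure D1:**
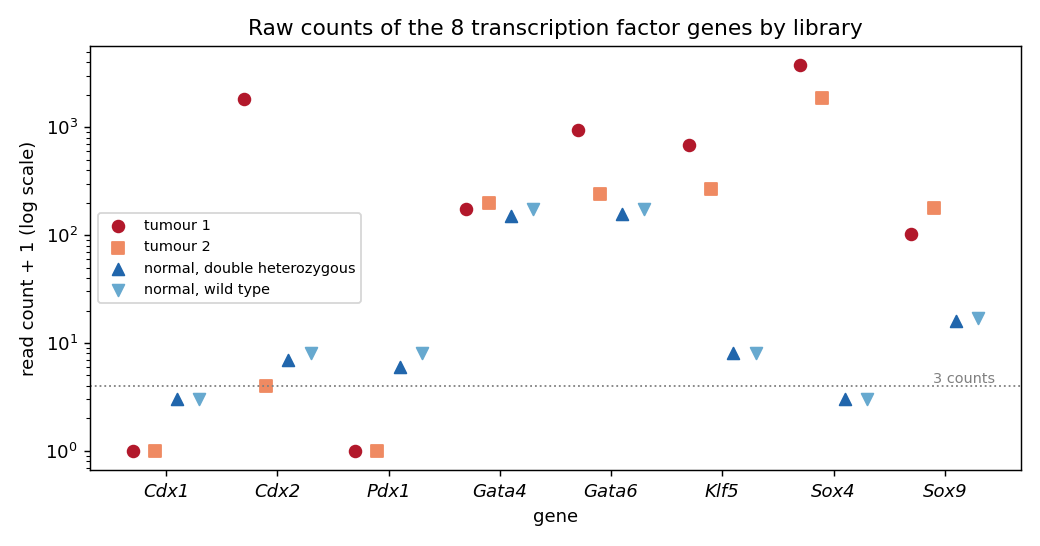
Raw read count plus 1 on a log scale for each of the 8 genes, with 1 point per library (tumours 1 and 2, then the normal tables labelled double heterozygous and wild type); the dotted line marks 3 counts. Cdx2 is at 1814 counts in tumour 1 and at 3 in tumour 2, while Sox4 and Klf5 are above both normal tables in both tumours.

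Of the 8 genes, Cdx2 differed most between the tumours. Cdx2, the master regulator of intestinal epithelium, had 1814 and 3 counts in tumours 1 and 2, against 6 and 7 in the normal tables labelled double heterozygous and wild type. It stood high in tumour 1 alone, and tumour 2 lay at the floor of 3 counts that a count of 0 allows. On the CPM scale, adjusted by TMM (a scaling for library composition), it reached 122 CPM in tumour 1 and 0.161 CPM in tumour 2, against 0.658 CPM in normal liver. Tumour 1 was 759-fold above tumour 2 (exact 95% counting interval 259 to 3683) and 186-fold above normal liver (85.2 to 507), and counting intervals here cover no biological spread. Tumour 2 was at 0.245 of normal liver, with an interval of 0.0396 to 1.15 that includes equality. A mean of both tumours, 61.2 ± 86.3 CPM (SD, n = 2), describes neither of them, and the fitted log2 fold change of 6.52 became -1.97 without tumour 1. By log2 ratio of tumour 1 to tumour 2 (8.66 with a prior count of 2), Cdx2 ranked 3 among 9626 genes with at least 10 CPM in either tumour, of which 3.19% were over 4-fold higher in tumour 1 and 6.78% over 4-fold lower.

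Cdx1, the close relative of Cdx2 in intestinal epithelium, had 0 counts in both tumours against 2 and 2 in the normal tables. All 4 values lie under the floor, so no fold is given. Pdx1, which directs pancreas formation, had 0 counts in both tumours against 5 and 7 in the normal tables, and was at least 3.62-fold lower in the tumours when their floors, 0.202 and 0.161 CPM, are averaged. That bound takes the normal counts as exact. The 95% counting limit of normal liver over tumour began lower, at 1.92 for tumour 1 and 2.40 for tumour 2. Both rest on TMM and were not computed with libraries scaled by size alone. That scaling raised the median log2 fold change of all genes by 1.37. A lower level of Pdx1 in the tumours is thus not shown under both scalings. Neither Cdx1 nor Pdx1 passed the filter on low counts. Pancreatic enzyme genes, too, were at 0 in the tumours: pancreatic lipase Pnlip, chymotrypsinogen Ctrb1, the bile salt lipase gene Cel and carboxypeptidase Cpa1 had 0 counts in both tumours against 399 and 430, 291 and 314, 239 and 257, and 190 and 196 in the normal tables. The pancreatic list summed to 5.12 and 7.51 CPM in the tumours against 315 CPM in normal liver, with the endocrine genes Gcg and Sst at 0 in all 4 tables. The part of these transcripts in the Pdx1 counts was not tested.

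Cdx2, Pdx1 and Gsx1 are neighbours on chromosome 5 in the ParaHox cluster, and the genes around them were looked up after the counts were seen. Gsx1, and with it Cdx4 and Gsx2 of the same families, was at 0 in all 4 libraries. On the other side of Cdx2, Prhoxnb (now Urad), a gene of urate breakdown in liver, had 0 counts in both tumours against 244 and 341 and fell at least 176-fold (edgeR quasi-likelihood test, adjusted p = 0.0371). The receptor gene Flt3, next to it, had 0 counts in both tumours against 3 and 3. The high count of tumour 1 within this stretch was thus at Cdx2 only, of the genes from Gsx1 to Flt3. Further out, Pan3 had 1393 and 1178 counts in tumours 1 and 2 against 584 and 778, Polr1d 767 and 1606 against 230 and 266, and Lnx2 702 and 932 against 170 and 193. The receptor gene Flt1 lay opposite to Cdx2 between the tumours, with 6 and 391 counts in tumours 1 and 2 against 128 and 145.

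The GATA genes were present in all 4 libraries. Gata4, a regulator of early endoderm and, in adult liver, of sinusoidal endothelium and stellate cells, had 175 and 199 counts in the tumours against 149 and 173. After scaling it was at 11.2 ± 0.784 CPM in tumours (SD, n = 2) and 17.6 CPM in normal liver, below it in both tumours, as were 40.1% of all genes tested. The fitted log2 fold change was -0.65 and turned to 0.72 when libraries were scaled by size alone, a scaling that moved the median of all genes by 1.37. Gata4 thus has no direction that holds under both scalings. The 9 endothelial markers summed to 2.96 and 10.5 CPM in the tumours against 412 CPM in normal liver, with Stab2 at 2 and 1 counts and Clec4g at 0 and 0. The stellate cell list summed to 0.674 and 87.8 CPM against 186 CPM, with its defining gene Lrat at 0 in both tumours. Most of the sum in tumour 2 was Pdgfrb, at 82.0 CPM there and 0.135 CPM in tumour 1, against 4.93 CPM. The part of these cells in the Gata4 counts was not tested.

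Gata6, which overlaps with Gata4 in early endoderm, had 944 and 240 counts in the tumours against 154 and 175. It stood apart in tumour 1, at 63.6 CPM, while tumour 2 at 12.9 CPM lay below normal liver at 18.0 CPM. Scaled by library size alone, tumour 2 lay above it (ratio 1.89, against 0.717 with TMM), so only the place of tumour 1 above normal liver holds under both scalings. Tumour 1 was 4.94-fold above tumour 2 (counting interval 4.28 to 5.71), which made Gata6 and Cdx2 the members over 4-fold apart between the tumours. The fitted log2 fold change was 1.09, and -0.48 without tumour 1. An annotated gene on the opposite strand, 1010001N08Rik, overlaps Gata6, and had 44 and 5 counts in the tumours against 32 and 44. Whether strand was used in counting is not given in the sources used here, so reads of such partners may not be separable.

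Klf5, a zinc finger factor of dividing gut epithelium, had 679 and 266 counts in the tumours against 7 and 7. Both tumours were high and neither normal table was, at 30.0 ± 22.3 CPM in tumours (SD, n = 2) and 0.767 CPM in normal liver. Tumour 1 was 59.6-fold above normal liver (counting interval 28.8 to 149) and tumour 2 18.6-fold (8.91 to 46.7). The fitted log2 fold change was 5.27. Between the tumours, Klf5 was 3.20-fold higher in tumour 1 (2.78 to 3.71).

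Sox4, an HMG box factor of progenitor cells, had 3741 and 1841 counts in the tumours against 2 and 2. It reached 252 CPM in tumour 1 and 98.8 CPM in tumour 2, against 0.219 CPM in normal liver, the widest ratio of the 8 genes. With 2 counts in normal liver that ratio is loosely bound: 1150 for tumour 1 (counting interval 318 to 9497) and 451 for tumour 2 (125 to 3725). The fitted log2 fold change of 9.59 ranked 177 of 14468 genes tested. Of the 31-base words of Sox4, 54.7% lie in another annotated gene, and Gm26735 shares the most. Gm26735 lies on the opposite strand over Sox4 exons and is not among the genes counted. As the use of strand in counting is not given, its reads may be included in the Sox4 counts, which was not tested.

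Sox9, kept in adult bile ducts, had 101 and 178 counts in the tumours against 15 and 16. All of these values are low, and the groups do not overlap: 8.18 ± 1.94 CPM in tumours (SD, n = 2) and 1.75 CPM in normal liver. Tumour 1 was 3.88-fold above normal liver (counting interval 2.28 to 7.05) and tumour 2 5.45-fold (3.26 to 9.74), with a fitted log2 fold change of 2.22. Among the 6 members that passed the filter, Sox9 alone was higher in tumour 2, with tumour 1 at 0.712 of it (0.552 to 0.914). Sox9, Klf5 and Sox4 were above normal liver in both tumours, as were 43.1% of all genes tested. Klf5 and Sox4 were over 16-fold above it in both, where 4.14% of genes were. Nothing is read from these counts, since the genes were chosen on this comparison.

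**Figure D2:**
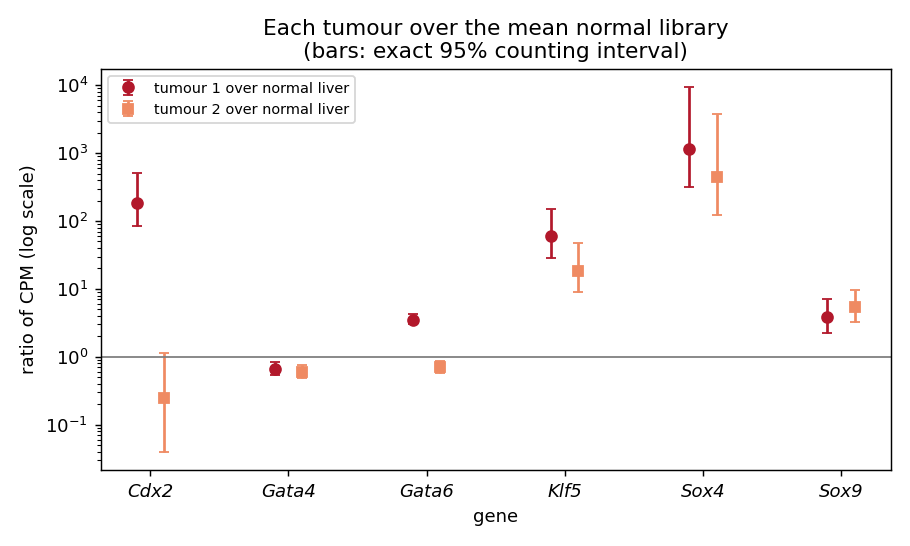
Ratio of each tumour's CPM to that of the mean normal library, on a log scale, for the 6 genes that passed the filter on low counts (bars are exact 95% counting intervals; the line marks equality). Sox4, Klf5 and Sox9 lie above 1 in both tumours, Gata4 below 1 in both on this scaling, and Cdx2 and Gata6 on opposite sides in tumours 1 and 2. Scaled by size alone, Gata4 turns to 1.69 and 1.60 in the tumours and Gata6 in tumour 2 to 1.89.

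Levels of different genes were compared per length, as CPM per kb of annotated exon. In tumour 1, Cdx2 at 54.0 and Sox4 at 52.6 CPM per kb led and did not differ beyond their counting intervals (51.6 to 56.6 and 50.9 to 54.3). Both lay above 97.4% and 97.3% of all genes with a length. Gata6 at 9.77 and Klf5 at 8.79 CPM per kb came next, also with overlapping intervals, then Gata4 at 3.02 and Sox9 at 1.65. In tumour 2 only Sox4 stood out, at 20.6 CPM per kb and above 91.3% of genes. The next places of tumour 2 were close: Klf5 at 2.75, Gata4 at 2.74, Sox9 at 2.31 and Gata6 at 1.98 CPM per kb, where each neighbour's interval overlaps the next. In normal liver the order began with Gata4 at 4.52 and Gata6 at 2.76 CPM per kb, whose intervals are apart. The other 6 genes lay at or under 0.424 CPM per kb there, with Sox4, at 0.0457, last, and their neighbours' intervals overlap.

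**Figure D3:**
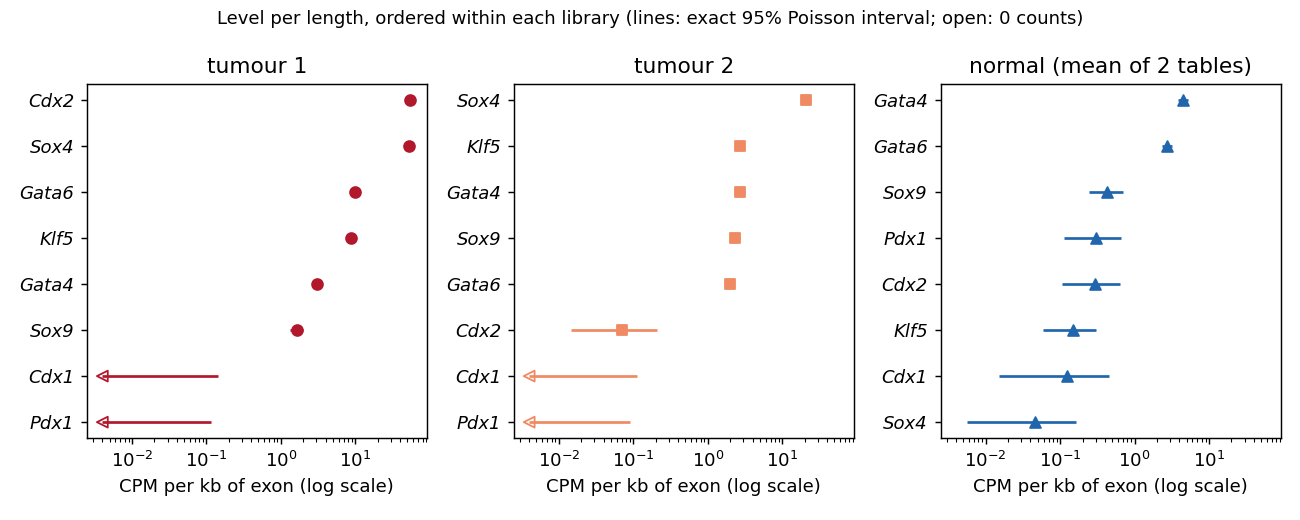
CPM per kb of exon on a log scale for the 8 genes, ordered within tumour 1, tumour 2 and the mean normal library (lines are exact 95% Poisson intervals; open arrows are 0 counts). Cdx2 and Sox4 share the top of tumour 1, Sox4 leads tumour 2, and Gata4 and Gata6 lead normal liver.

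For each member with at least 100 counts in some library, the genes nearest in log2(CPM + 0.5) over the 4 tables were found, as Euclidean distance. Nearest to Cdx2 were Shisa2 (distance 1.28) and the myosin gene Myo5c (1.49), with 1142 and 9, and 924 and 10, counts in tumours 1 and 2. These distances were wider than those found for the other members. Nearest to Sox4 were the annexin gene Anxa8 (0.257) and the ephrin receptor gene Epha4 (0.327). For Klf5 they were Fam125b (0.343) and Tmem173 (0.427), for Gata6 the serine protease gene Tmprss2 (0.524) and Chac2 (0.537), and for Sox9 Snrnp25 (0.295) and Fkbp7 (0.298). Gata4 had Rab4b (0.14) and Hic2 (0.182), which share 62.7% and 49.8% of their 31-base words with another gene.

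The tumours were compared with normal liver over 14468 genes by edgeR's quasi-likelihood test with Benjamini-Hochberg adjustment, which called 2.23% higher and 5.19% lower in the tumours, with a median log2 fold change of 0.19. Lists of 162 genes related to the members, the members left out, held 6 genes called higher and 10 called lower. The 162 include genes that did not pass the filter and were not tested, while the 2.23% and 5.19% are shares of genes tested. The lists that follow are read against these shares, and their medians against the median of all genes, which moved to 1.56 when libraries were scaled by size alone.

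Among the remaining GATA genes, none of the 3 tested of 4 was called in either direction. At an unadjusted p under 0.05, 1 was higher and 0 lower, and DESeq2 called 0, with a list median of 1.77 on the log2 scale. Gata3 had 24 and 39 counts in the tumours against 0 in both normal tables (adjusted p = 0.176), and Gata2 10 and 44 against 4 and 4 (adjusted p = 0.575). Of 9 GATA partner genes 6 were tested and 0 called, with 1 higher and 1 lower at an unadjusted p under 0.05, 1 higher and 0 lower by DESeq2, and a median of -1.77. Zfpm2, a cofactor that binds GATA factors, had 238 and 797 counts in the tumours against 5 and 6 (log2 fold change 5.46, SE 1.18, edgeR adjusted p = 0.0733). Its relative Zfpm1 had 360 and 187 against 543 and 608 (-1.88, SE 0.74, adjusted p = 0.195).

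The KLF and SOX families gave no call either. Of 16 other KLF genes 13 were tested and 0 called by edgeR in either direction, with 2 higher and 2 lower both at an unadjusted p under 0.05 and by DESeq2, and a median of -0.83. Klf6, a widely expressed immediate early factor, had 6206 and 4583 counts in the tumours against 142 and 152 (log2 fold change 4.36, SE 0.82, edgeR adjusted p = 0.0562). Klf13 had 1266 and 1731 against 1769 and 1793 (adjusted p = 0.237). Of 17 other SOX genes 7 were tested and 0 called by edgeR, with 1 higher and 3 lower at an unadjusted p under 0.05, 1 higher and 2 lower by DESeq2, and a median of -0.73. Sox11, of the same SOXC group as Sox4, had 72 and 1418 counts in tumours 1 and 2 against 0 in both normal tables. It was at least 123-fold higher on the mean of the tumours (edgeR adjusted p = 0.124). That mean rests on tumour 2, at 76.1 CPM against 4.85 CPM in tumour 1, so the bound does not hold for tumour 1 alone. Sox6, a partner of SOX9 in cartilage, had 165 and 63 against 562 and 645 (adjusted p = 0.111).

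Liver and early endoderm factors were lower where they changed. Of 18, 13 were tested, 3 fell and 0 rose, with a list median of -1.39. Onecut1, a factor of hepatocyte and bile duct development, fell to 3 and 10 counts in the tumours, against 936 and 1186 (log2 fold change -8.24, SE 0.84, edgeR adjusted p = 0.0221; 53.0% of its 31-base words lie in another gene). Prox1 fell to 55 and 24 counts, against 1571 and 1743 (-6.19, SE 0.86, adjusted p = 0.0342). Foxa1, a pioneer factor of endoderm, fell to 35 and 59 counts, against 388 and 410 (-3.98, SE 0.67, adjusted p = 0.0466), a call lost when libraries were scaled by size alone (adjusted p = 0.0972).

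Intestinal genes, among them known targets of CDX2, held 1 gene that fell in the tumours and several that stood higher in tumour 1 than in tumour 2. Of 25, 22 were tested, 0 rose and 1 fell, with 3 higher and 7 lower at an unadjusted p under 0.05, 3 and 6 by DESeq2, and a list median of -0.46. The gene that fell was sucrase-isomaltase, Sis, with 0 counts in both tumours against 198 and 233 (at least 130-fold lower, edgeR adjusted p = 0.0441), lost when scaled by size alone (adjusted p = 0.0652). Lactase, Lct, had 0 counts in both tumours against 76 and 80 (adjusted p = 0.0809), and the alkaline phosphatase gene Alpi 106 and 0 counts in tumours 1 and 2 against 354 and 383 (adjusted p = 0.379). These enzymes of the gut surface were thus present in both normal tables.

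Between the tumours, 8 intestinal genes had at least 10 CPM in either. Of these 6 were over 4-fold higher in tumour 1, where 3.19% of all genes were, and 1 was over 4-fold lower, where 6.78% were. Muc13, Isx, Lgals4 and Gpa33, described below, reached 10 CPM in tumour 1 only, and Lgr5 in tumour 2 only. Their place among the 8 thus came from the library in which they were high, and nothing is read from the count of 6. The shares of all genes were taken with the same cut. With 1 library on each side there is no test, and the following were named after their values were seen. The mucin gene Muc13 had 1613 and 5 counts in tumours 1 and 2, against 121 and 130 in the normal tables. Isx, an intestine-specific homeobox gene, had 481 and 0 against 4 and 5. Lgals4, a galectin of gut epithelium, had 3755 and 111 against 256 and 334. In all 3, tumour 1 was the highest library and tumour 2 the lowest. The surface antigen gene Gpa33 had 175 and 1 counts in tumours 1 and 2, a ratio of 220 with a counting interval of 38.9 to 8724, against 11 and 12. The adhesion gene Cdh17 had 5935 and 986, and Vil1, which encodes villin of the brush border, 2316 and 448, in tumours 1 and 2, against 87 and 91, and 124 and 137. These 2 were above both normal tables in both tumours. Lgr5, a stem cell marker of the crypt, was on the other side, with 13 and 259 counts in tumours 1 and 2 against 84 and 85.

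**Figure D4:**
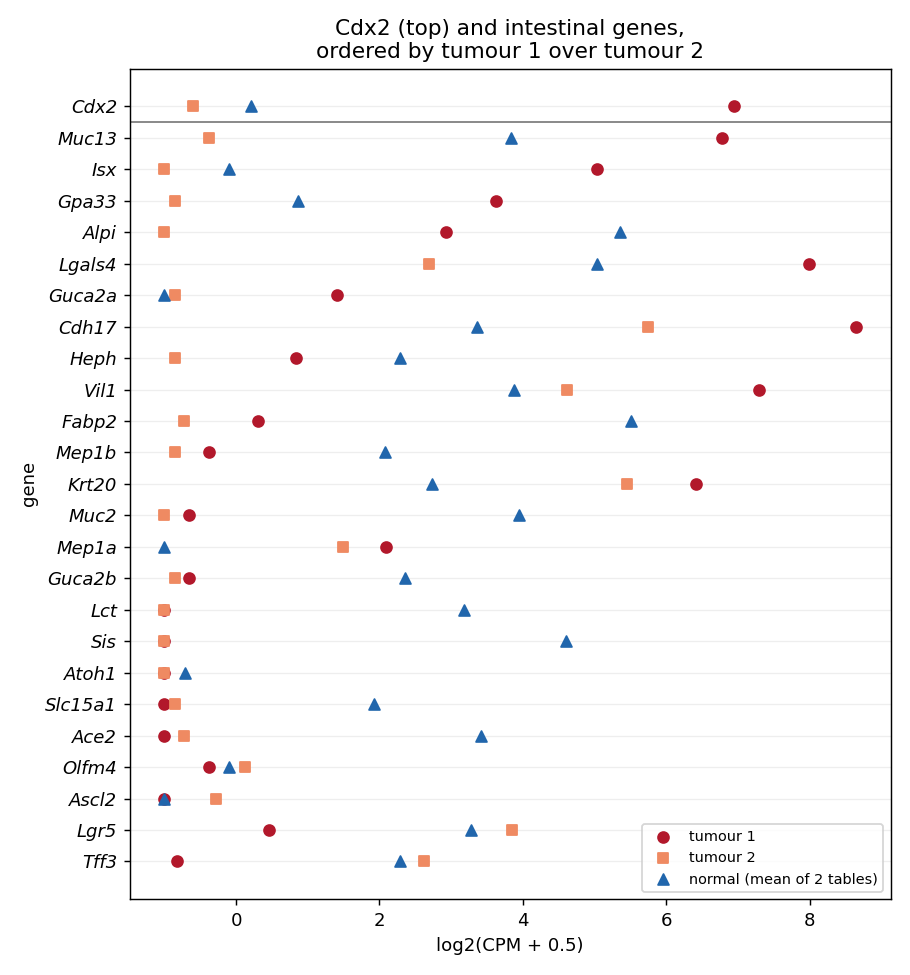
Level as log2(CPM + 0.5) of Cdx2 and of the 24 intestinal genes with a count in any library, in tumour 1, tumour 2 and the mean normal library, ordered by tumour 1 over tumour 2. Cdx2, Muc13 and Isx are far to the right in tumour 1 and at the left edge in tumour 2, while Sis and Lct are at 0 in both tumours.

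Fibroblast markers stood the other way between the tumours. The list of 6 summed to 4.38 and 645 CPM in tumours 1 and 2 against 99.9 CPM in normal liver. Of the 4 with at least 10 CPM in either tumour, 4 were over 4-fold lower in tumour 1, where 6.78% of all genes were. All 4 reached that level in tumour 2 only, so the cut itself favoured this side and nothing is read from the count. Col1a1 had 30 and 3757 counts and Col1a2 1 and 5230 in tumours 1 and 2, against 11 and 18, and 75 and 78, in the normal tables. The list did not stand on 1 side of normal liver, since Lum had 0 counts in both tumours against 38 and 39, and Dcn was at 1.28 and 8.27 CPM against 64.9 CPM, below it in both. The macrophage list summed to 19.4 and 4.78 CPM in tumours 1 and 2 against 162 CPM, with the Kupffer cell gene Clec4f at 0 in both. Marco, of the same list, had 121 and 1 counts in tumours 1 and 2 against 12 and 18, and Cd68 was at 2.02 and 3.49 CPM against 2.41 CPM. Their part in the differences of Cdx2 and Gata6 between the tumours was not tested.

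Bile duct genes, the setting in which adult liver keeps Sox9, rose in part. Of 14, 13 were tested, 4 rose and 0 fell, with a list median of 6.63. Both tumours were above normal liver in 10 of the 13 and below it in 0, where 43.1% and 40.1% of all genes tested were. The keratin gene Krt7 had 3500 and 3925 counts in the tumours against 6 and 8 (log2 fold change 8.17, SE 0.86, edgeR adjusted p = 0.0227). Krt19 and osteopontin, Spp1, rose as well, by 6.63 and 5.77 on the log2 scale (adjusted p = 0.0435 and 0.0462), and 14.3% of the 31-base words of Spp1 lie in another gene. Tspan8 had 5570 and 2574 counts against 17 and 20 (7.02, SE 1.19, adjusted p = 0.0475), lost without the normal table labelled wild type (adjusted p = 0.051). Between the tumours, 3.19% of all genes compared were over 4-fold higher in tumour 1 and 6.78% over 4-fold lower. Of 13 bile duct genes, 4 were over 4-fold higher there and 1 over 4-fold lower. Among them, named after their values were seen, were the adhesion gene Epcam at 356 and 4 counts and the chloride channel gene Cftr at 466 and 7, in tumours 1 and 2, against 46 and 48, and 15 and 16, in the normal tables. Epcam, Cftr and Prom1 reached 10 CPM, the cut for this comparison, in tumour 1 only, and Aqp1, the gene over 4-fold lower, in tumour 2 only. Nothing is read from these counts of genes. Mesothelium, the lining of body cavities, is a known site of GATA4 and GATA6. Of its 6 markers, 2 of 5 tested rose. Mesothelin, Msln, had 8766 and 3601 counts in the tumours against 3 and 5 (log2 fold change 9.78, SE 1.49, adjusted p = 0.0396), and at 591 and 193 CPM made up most of the list's sum of 609 and 209 CPM in the tumours, against 2.3 CPM in normal liver. The uroplakin gene Upk1b was the other, with 234 and 203 counts in the tumours against 0 in both normal tables (at least 40.5-fold, adjusted p = 0.0462). Wt1, a defining mesothelial factor, had 17 and 51 counts in the tumours against 1 and 1, while Gpm6a had 2 and 16 against 10 and 11. The part of such cells was not tested.

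Stomach, pancreas, cartilage and KLF5 target lists completed the survey. Of 15 stomach genes 4 were tested and Vsig1, a junction protein gene, rose, with 168 and 343 counts in the tumours against 0 in both normal tables (at least 45.2-fold, edgeR adjusted p = 0.0449), while 0 fell. At an unadjusted p under 0.05, and by DESeq2, 1 was higher and 1 lower, and the list median was 3.14. Ctse, a protease gene of gastric epithelium named after its values were seen, had 169 and 58 counts in the tumours against 826 and 854 (log2 fold change -3.67, SE 0.92, edgeR adjusted p = 0.0944). Of the 15, 7 were at 0 in all 4 libraries, Sox2, Barx1 and Tff1 among them. Of 27 pancreatic genes 7 were tested, 5 fell and 0 rose. Among those that fell were the 4 enzyme genes named with Pdx1 (at least 117-fold to 250-fold, edgeR adjusted p from 0.0312 to 0.047). These 4 had 0 counts in both tumours and passed the filter on low counts through the normal library alone. Of the 27, 20 were at 0 in both tumours, and all 7 tested lay below normal liver in both. For a gene at 0 in both tumours, passing the filter already fixes the direction, so nothing is read from the count that fell or from the median. The median of the 7 pancreatic genes tested was -11.23, and -6.86 where genes absent from the tumours entered as bounds. Scaled by size alone, Ctrb1, Cel and Cpa1 lost their calls (adjusted p = 0.0556, 0.0609 and 0.0679). Of 13 cartilage targets of SOX9 4 were tested and 0 called by edgeR, with 0 higher and 2 lower at an unadjusted p under 0.05 and by DESeq2, and a median of -2.53. Col11a2 had 25 and 10 counts in the tumours against 29 and 45 (adjusted p = 0.434). Of 7 reported KLF5 targets all were tested, cyclin D1 rose and the receptor gene Egfr fell, with a median of 4.46. Both tumours were above normal liver in 6 of the 7 and below it in 1, where 43.1% and 40.1% of all genes tested were. Ilk was among the 6 by little, at 51.4 and 62.1 CPM in the tumours against 42.2 CPM. In Ilk 78.4%, and in Pdgfa 23.3%, of the 31-base words lie in another gene. Ccnd1 had 11287 and 17364 counts in the tumours against 193 and 193 (5.32, SE 0.88, adjusted p = 0.0456), and 22.3% of its 31-base words lie in another gene. Egfr, abundant in hepatocytes, had 2028 and 1336 counts against 35305 and 40788 (-5.32, SE 0.86, adjusted p = 0.0435), a call lost when scaled by size alone (adjusted p = 0.0508). Between the tumours, 3.19% of all genes compared were over 4-fold higher in tumour 1 and 6.78% over 4-fold lower. Of the 7 KLF5 targets, 0 were over 4-fold higher there, where Klf5 was higher, and 3 were over 4-fold lower. These were, named after their values were seen, the cell division genes Birc5 and Ccnb1, with 49 and 1747, and 49 and 1292, counts in tumours 1 and 2 against 19 and 20, and 0 and 0, and Fgfbp1, with 14 and 301 against 1 and 1. All 3 reached 10 CPM, the cut for this comparison, in tumour 2 only, the library in which they were high. In Ccnb1, 27.8% of the 31-base words lie in another gene.

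The normal tables differed little in the members. Gata4, Gata6, Sox9 and Klf5 had log2 ratios of 0.08, 0.11, 0.18 and 0.24 of the table labelled double heterozygous to that labelled wild type. All 8 genes were within 2-fold, as were all but 4.42% of 8267 genes with at least 10 CPM in either table. Cdx1, Cdx2, Pdx1, Klf5, Sox4 and Sox9 lay at or under 1.75 CPM in normal liver, so this share is no background for them. At such low counts a prior count of 2 also draws the ratios together. Since these tables share counts beyond sampling, this cannot show what the genotype does without a tumour.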

How the data were processed

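The authors deposited raw read counts per gene symbol, 1 table per library, whole numbers with no normalization. The submitters' processing notes list TopHat2 2.0.10, HTSeq, FastQC, Trimmomatic and DESeq2, and mm9 as the build, with no role or order. Settings of the counting, strand included, were not stated. Total RNA was made into TruSeq libraries, per the labels' protocols. Lines that named no gene were left out (alignments outside genes 13.6% to 31.5%, not unique 30.7% to 51.5%, ambiguous at most 0.107% of all).

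The members, lists and tests were chosen with earlier results of these data known. Tumours (n = 2) were compared with the rounded mean of the normal tables (n = 1) in edgeR 4.0.16 (R 4.3.3): TMM scaling, the quasi-likelihood test (glmQLFit, glmQLFTest) on genes kept by filterByExpr at 10 counts, and an adjusted p (Benjamini-Hochberg) under 0.05. The fit has 1 residual degree of freedom, from the tumours, a common dispersion of 0.442 and a median of 3.32 prior degrees of freedom. The SE is the absolute log2 fold change over the root of F. The fit, but not the SE, was run on counts simulated with its own dispersion, and no result of that run is used here. DESeq2 1.42.0, other scalings, no filter, other uses of the normal tables and leaving out each tumour were alternatives. For a count of 0 the floor was 3 counts in each library. Floors and intervals cover counting error only. Ratios of CPM have exact 95% intervals from the conditional binomial. Exon lengths and 31-base words come from GENCODE M21 (GRCm38), promoters from RefSeq. The coordinates given are those of the RefSeq promoter windows (GRCm38.p6). As mm9 was named for the counts, none are given for the counted genes. Genes named from a list are those called, at most 4 per direction with the largest change, or, with none called, at most the 2 highest in the tumours. The values of 1 gene of the pancreatic list are not reported here.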

Additional observations from a re-analysis of the deposited data

How the results depend on the processing

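Of 135 values recomputed under an alternative, 103 kept their direction and size. The 103 include every log2 ratio between the tumours and between the normal tables. For these only the prior count or the scaling was changed, which moves such ratios little, so they say little about how firm the results are. For counts of genes called, size was kept within a set ratio of the main count. For a member over normal liver, it was kept if the log2 fold change moved by less than the SD of the tumours' log2 CPM. That SD is wide for Cdx2 and Gata6, whose tumours lie far apart, so a kept size says little for them. Genes called over all 14468 numbered 322 higher and 751 lower. They were 635 and 472 with libraries scaled by size alone, 903 and 1383 with no filter, 3058 and 3157 with the normal tables as separate libraries, and 1728 and 1719 by DESeq2. Leaving out 1 tumour, with the normal tables separate, gave 5294 to 5698 higher and 5092 to 5342 lower. The spread in those fits is that between near-identical normal tables. In the related lists, 6 were called higher and 10 lower. The higher calls were 10 with RLE scaling, 11 scaled by size alone, 16 with no filter, 21 with separate normal tables and 21 by DESeq2, and 33 to 39 without 1 tumour. The lower calls were 4, 20, 34 and 22 in the order size alone, no filter, separate tables and DESeq2, and 48 to 53 without 1 tumour. Scaling by size alone moved the median of all genes by 1.37. The log2 fold changes were then 0.72 for Gata4, 6.61 for Klf5, 10.89 for Sox4 and 3.59 for Sox9. Cdx2 moved from 6.52 to 7.84 and Gata6 from 1.09 to 2.44, both counted as kept. Upper quartile scaling gave Gata4 -0.42. Without 1 tumour the values ranged from -1.97 to 7.52 for Cdx2 and from -0.48 to 1.82 for Gata6. Their sign rests on tumour 1. Cdx2 did not pass the filter with separate normal tables and has no value there. Apart from the scaling, the cause was not tested. No paired analysis was possible because the normal tables carry no replicate numbers. Depth limits Cdx1, Pdx1 and the normal levels of Cdx2, Klf5 and Sox4, all at 7 counts or fewer.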

Other observations

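Some members of the lists above that the report does not name were also read in each library, and were chosen after their values were seen. Hnf4g, which with its relative Hnf4a regulates gut and liver epithelium, had 117 and 3 counts in tumours 1 and 2 against 36 and 43 in the normal tables, so that tumour 1 was 49.0-fold above tumour 2 (exact 95% counting interval 16.3 to 241). Hnf4a had 2323 and 1991 counts in the tumours against 11330 and 12038, and its difference from normal liver did not pass the test (edgeR adjusted p = 0.0621). Klf4, a factor of differentiated gut epithelium, had 797 and 1101 counts in the tumours against 33 and 37 (edgeR adjusted p = 0.0527), with both tumours above both normal tables. Anxa8 and Epha4, named above as the genes nearest in pattern to Sox4 and in none of the lists, both rose. Anxa8 had 4011 and 2064 counts in the tumours against 2 and 3 (edgeR adjusted p = 0.033), and Epha4 had 3493 and 2075 against 3 and 3 (edgeR adjusted p = 0.0303). The choice of these 2 by their likeness to Sox4 uses the same counts, so their rise is no separate evidence.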
